A study of Saccharomyces cerevisiae with 50 samples.

Results

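Yeast cells at and just after release from a G1 arrest by mating pheromone were compared with later cells of the same time course, near M/G1. The arrest samples were taken at 0 min, the moment of release from alpha factor, and at 5 min, when the pheromone had been removed. The words at arrest refer below to both times together. The cycling samples were taken at 70 and 75 min, about 1 cell cycle period of 71 min later. The arrays were taken by their labelled times, which gave 8 of the 50 arrays of the series, or 4 of its 25 time points, with 4 arrays in each group. All 25 samples came from a Saccharomyces cerevisiae yox1 mutant that was arrested with alpha factor and released into the rich medium YEPD. Both groups thus carry the mutation in the gene of the repressor Yox1, and both had been arrested. Each time point, labelled with Cy5, shared its arrays with a Cy3-labelled reference taken from wild-type yeast growing asynchronously in YEPD. The reference thus differs from every sample in genotype as well as in synchrony. It has the same description for both groups. It drops out of their difference only if its RNA was alike on all arrays, which was not tested. Each time point has 1 array in each of 2 array sets, which the design text calls technical replicates, and no array has the dyes exchanged.

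Haploid a cells sense alpha factor through a receptor coupled to a G protein, which activates a cascade of MAP kinases ending in Fus3. Fus3 frees the transcription factor Ste12 from its inhibitors, and it also acts through Far1 to block the cyclin-dependent kinase in G1, before the wave of late G1 transcription. Ste12 turns on genes for cell adhesion, cell fusion and nuclear fusion, and with them genes whose products damp the response. A cycling cell in early G1 has come from mitosis recently, and may still carry products of the mitotic and the M/G1 gene programmes.

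Values are log2 ratios to the reference, and a difference is the mean of 0 and 5 min minus the mean of 70 and 75 min on that scale. It was tested with limma at a Benjamini-Hochberg adjusted p under 0.05, with each time point counted as 1 replicate and the spread taken from neighbouring times along the course. These p-values therefore measure the scatter between neighbouring time points of technical replicates and not that between cultures. With bulk RNA, fewer cells of a type and less RNA per cell cannot be told apart. The arrest arrays and the cycling arrays carry different dates in their titles in both sets, so the title date and the group cannot be told apart. Titles of 0 and 5 min in array set 2 have an M where other titles share a number, with no explanation of the M in the labels. The array titled 75 min in set 2 has a source name that reads 0 min and was counted as 75 min.

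The samples were first checked against their labels. YOX1 itself read below the reference on all 8 arrays, at -1.89 and -1.63 at 0 min (array sets 1 and 2), -2.25 and -1.66 at 5 min, -1.54 and -0.82 at 70 min, and -1.29 and -0.72 at 75 min. Where the probe lies relative to the mutated sequence is not known here. Of 7 marker genes of a cells all 7 were higher at arrest, with levels of 0.41 to 4.28 against -1.43 to 0.23 in cycling cells. Of 3 tested markers of alpha cells none passed in limma, and none had an unadjusted p under 0.05, with levels of -0.28 to 0.39 and -0.74 to 0.38. All 6 markers of the pheromone response were higher at arrest. The 5 markers of M/G1 stood at 0.74 to 1.63 in the cycling samples and at -2.74 to -0.68 at arrest. The 4 late G1 markers stood at -2.25 to -1.90 at arrest and at -0.51 to 0.09 in cycling cells, and the 4 G2/M markers at -2.41 to -0.61 and at 0.17 to 0.42. The 3 S phase markers stood at -2.87 to -2.29 at arrest and at -1.64 to -1.26 in cycling cells. Of 5 tested markers of sporulating diploids 1, SPO11, was higher and none lower. M/G1 and G2/M markers thus lay above the reference in cycling cells and below it at arrest. By these markers the 2 groups were not matched in cycle position.

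The 8 arrays measured 5788 to 6101 of 6205 open reading frames. Across genes, arrays of the same time point correlated at 0.52 to 0.80 (Pearson's r, 4 pairs), arrays of the same group but another time at 0.42 to 0.84 (8 pairs), and arrays of different groups at 0.15 to 0.75 (16 pairs). The array of 70 min in set 1 stood apart for a block of 43 genes, which lay more than 1 below their level on the other 3 cycling arrays. For 35 of these it fell within or below the arrest range, and 31 of the 43 were among the genes called lower at arrest.

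Arrest and cycling cells differed across much of the genome. Of 5992 genes tested, 1973 (32.9%) passed the threshold, 913 (15.2%) with a higher level at arrest and 1060 (17.7%) with a lower one. The median difference over all genes was 0.00, with quartiles of -0.28 and 0.24. Most called differences were small, with a median size of 0.53 among higher genes and -0.68 among lower genes. A difference of 1 or more, that is 2-fold, was reached by 129 higher and 268 lower genes. Among 5293 genes measured on all 8 arrays, the 4 arrest arrays all lay above the 4 cycling arrays with a difference of 1 or more for 105 (1.98%), and all lay below for 159 (3.0%).

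The number of calls depended on the estimate of the spread. With only the 4 time points compared in the fit, 125 genes were higher and 171 lower. With 25, 40 and 55 min added to the fit, whose arrays had an SD of ratios of 0.74 to 1.23 against 0.33 to 0.83 on the other arrays, 226 were higher and 182 lower. With the title date as a random block over the 8 arrays, 75 were higher and 90 lower. The counts of the lists below are given in these 3 fits as well. Each list count is to be read beside the 15.2% higher and 17.7% lower over all genes. A core of 57 higher and 60 lower genes, chosen after these results were seen, passed in the same direction in those fits, in each array set alone and with arrays scaled to equal spread. Genes of the pheromone and a-cell lists supplied 11 of the 57, and genes of the cell cycle lists 28 of the 60. These lists hold 67 and 127 of the 5992 genes tested. The 57 also include reading frames of Ty retrotransposons, of which 16 from Ty1, Ty2 and Ty4 were higher with the date block. Such frames are copies of each other and not separate observations, so the 57 are not all independent.

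**Figure D1:**
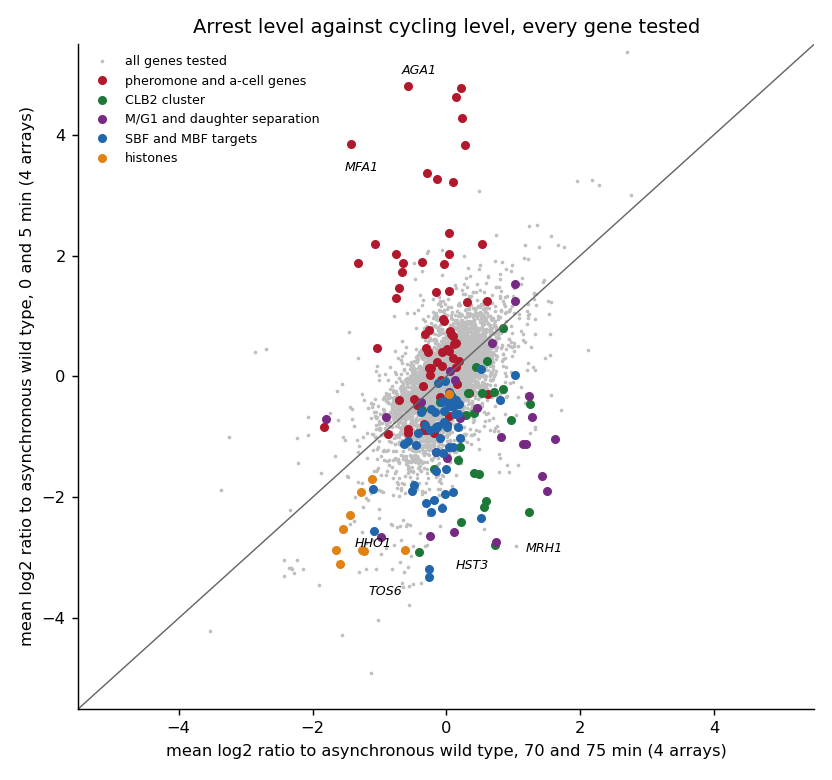
Mean log2 ratio to asynchronous wild type at 0 and 5 min (vertical) against that at 70 and 75 min (horizontal), 1 point per gene tested, with gene lists in colour and the line of equal levels. AGA1 and MFA1 lie far above the line with other pheromone and a-cell genes, while HST3, MRH1, TOS6 and the histone HHO1 lie below it.

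The genes furthest above their cycling level were those of the pheromone response. Of 67 tested genes in the 5 lists of pheromone and a-cell genes, 36 were higher at arrest and 8 lower. Over all genes 15.2% were higher and 17.7% lower. All 8 tested a-cell genes, which only a cells transcribe, were higher, with a median difference of 2.46 against 0.00 over all genes. These genes were at least 1 above the cycling level at 0 min for 6 of the 8 and at 5 min for the same number. With only the 4 time points in the fit, and with the date block, the 4 called were MFA1, MFA2, ASG7 and AGA2, and with 25, 40 and 55 min 7 were called.

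Among genes for the ligand, the receptor and export of the ligand, the 2 genes for the a-factor precursor led. MFA1 stood at 3.27 and 4.14 at 0 min (array sets 1 and 2) and at 3.59 and 4.38 at 5 min, against -1.65 and -0.76 at 70 min and -2.14 and -1.15 at 75 min. The arrest arrays all lay above the cycling arrays, and the level was the same within 0.28 at 0 and 5 min. The difference of MFA1 was 5.27 ± 0.26 (SE), or 38.6-fold, with an adjusted p of 2.03e-08. MFA2, the second a-factor gene, stood at 1.75 and 2.31 at 0 min, 1.25 and 1.57 at 5 min, -0.79 and -0.83 at 70 min and -0.18 and -0.86 at 75 min. Its groups did not overlap either, and the difference was 2.39 ± 0.21 (adjusted p = 1.88e-06).

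STE2, the alpha-factor receptor, was high at both arrest times but less so at the second. It stood at 1.55 and 2.16 at 0 min and at 0.62 and 0.84 at 5 min, against -1.15 and -0.67 at 70 min and -0.67 and -0.53 at 75 min. The 5 min level lay between those of 0 min and of cycling cells on every array. Its difference was 2.05 ± 0.30 (adjusted p = 0.000181). The adjusted p was 0.0524 with only the 4 time points and 0.0623 with the date block. Lesser differences were found for STE14, which methylates a-factor (0.69 ± 0.09), for the a-factor protease AXL1 (0.68) and for the exporter STE6 (0.48). Of the 10 genes of this list, 6 were higher and 2 lower, against 15.2% and 17.7% over all genes, with a median of 0.58. The lower members were RAM1, a farnesyltransferase subunit (-0.62), and STE24, a protease that also acts on farnesylated proteins (-0.39), and neither passed in the other 3 fits. MFA1 and MFA2 were the 2 genes of the list called with only the 4 time points and with the date block, and STE2, STE14 and AXL1 joined them with 25, 40 and 55 min.

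The genes of the signalling cascade lay closer to their cycling levels. Of 17 genes tested, 6 were higher and 3 lower, with a median of 0.20. Over all genes 15.2% were higher and 17.7% lower, so the share of lower genes was near that of the genome. FUS3, the MAP kinase of the mating response, stood at 1.15 and 1.64 at 0 min and at -0.75 and -0.14 at 5 min, against -1.82 and -0.69 at 70 min and -1.29 and -0.37 at 75 min. The groups overlapped through the 5 min arrays. The difference of FUS3 was 1.51 ± 0.39 (adjusted p = 0.00914), but 0.59 without 0 min, where the adjusted p was 0.0915. GPA1, the G protein alpha subunit, stood at 1.04 and 1.41, 0.25 and 0.38, -0.33 and -0.16, and -0.34 and -0.23 in the same order, with a difference of 1.04 ± 0.22 (adjusted p = 0.00244). DIG2, an inhibitor of Ste12, was higher by 0.93 ± 0.10, and the beta and gamma subunits STE4 and STE18 by 0.40 and 0.63.

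STE7, the kinase that activates Fus3, was lower at arrest (-0.70 ± 0.13, adjusted p = 0.00094), as were the filamentation kinase KSS1 (-0.59) and MCM1 (-0.45 ± 0.11, adjusted p = 0.00683). Mcm1 is the DNA-binding partner of Ste12 and of Yox1. The scaffold STE5 (0.26), the kinase STE11 (0.06) and STE12 itself (-0.09) did not pass. With only the 4 time points in the fit, or with the date block, DIG2 was the 1 cascade gene called, and with 25, 40 and 55 min DIG2, GPA1 and FUS3 were called, all higher.

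Genes that damp the response or impose the arrest were mostly higher at arrest. Of 12 tested, 8 were higher and 1 lower, against 15.2% and 17.7% over all genes, with a median of 0.99. SST2, which speeds the shut-off of the G protein, stood at 2.45 and 2.86 at 0 min and 1.12 and 1.09 at 5 min, against -1.39 and -1.28 at 70 min and -1.25 and -1.37 at 75 min. The cycling values lay close together and the groups did not overlap. The difference was 3.20 ± 0.35, or 9.19-fold (adjusted p = 1.49e-05). ASG7, an a-specific inhibitor of the signal, stood at 4.93 and 5.28, 3.80 and 3.11, 0.20 and -0.17, and 0.44 and 0.45, a difference of 4.05 ± 0.45 (adjusted p = 1.82e-05).

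BAR1, the secreted protease that destroys alpha factor, stood at 2.52 and 3.06 at 0 min and at 0.83 and 1.08 at 5 min, against -1.06 and -0.83 at 70 min and -0.44 and -0.30 at 75 min. Its level at 5 min lay nearer to that of cycling cells than to that of 0 min. The difference of BAR1 was 2.53 ± 0.49 (adjusted p = 0.00146), with an adjusted p of 0.0783 with only the 4 time points and 0.121 with the date block. AFR1, needed for receptor down-regulation and for the shape of the mating projection, was higher by 1.65 ± 0.23, and the phosphatases PTP2 and PTP3, which act on MAP kinases, by 0.99 and 0.32. AKR1, a palmitoyltransferase that restrains the pathway, was lower (-0.91). With the date block ASG7 and SST2 were the 2 genes of the list called, and with only the 4 time points PTP2 joined them. With 25, 40 and 55 min 7 were called, all higher.

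FAR1, the inhibitor that holds the cyclin-dependent kinase in G1, did not pass the test over the pair of arrest times (0.36). Its mean was 1.55 at 0 min and -1.28 at 5 min, against -0.22 in cycling cells. The 2 arrest times thus lay on opposite sides of the cycling level, and FAR1 was called lower without 0 min and higher without 5 min. MSG5, a phosphatase of Fus3, had means of 1.10, -0.20 and 0.00 in the same order and did not pass either (0.44).

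**Figure D2:**
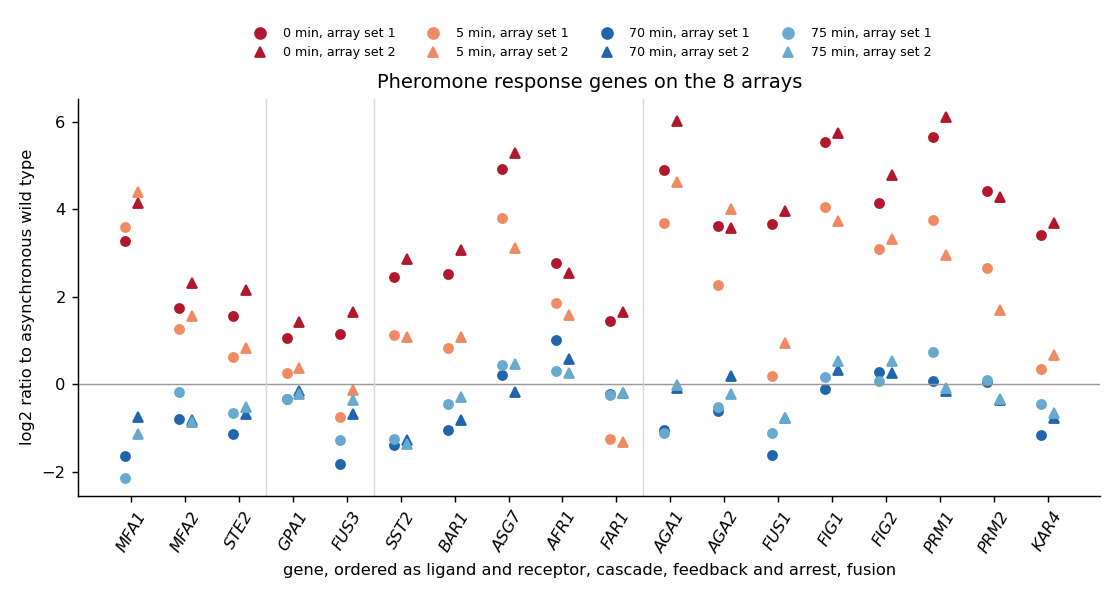
Log2 ratio to asynchronous wild type (vertical) of 18 pheromone response genes (horizontal, ordered by role) on each of the 8 arrays, with circles for array set 1 and triangles for set 2. The 0 min arrays lie highest for most genes, MFA1 stays as high at 5 min, and FAR1 at 5 min lies below its cycling level.

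The list of agglutination, cell fusion and nuclear fusion genes held the widest differences. Of 29 tested, 17 were higher and 2 lower, against 15.2% and 17.7% over all genes, with a median of 1.56. AGA1, the anchor subunit of a-agglutinin, stood at 4.88 and 6.02 at 0 min and 3.69 and 4.62 at 5 min, against -1.06 and -0.10 at 70 min and -1.11 and -0.01 at 75 min. It had the largest called difference of the genes measured on all 8 arrays whose groups did not overlap, 5.37 ± 0.47 or 41.4-fold (adjusted p = 1.91e-06). AGA2, the adhesion subunit, stood at 3.60 and 3.58, 2.26 and 4.00, -0.62 and 0.20, and -0.53 and -0.22, a difference of 3.66 ± 0.22 (adjusted p = 6.16e-08). FIG1, a membrane protein of mating cells needed for calcium influx, stood at 5.55 and 5.73, 4.06 and 3.73, -0.11 and 0.32, and 0.16 and 0.52, a difference of 4.54 ± 0.45 (adjusted p = 6.55e-06). On none of these 3 genes did the groups overlap, and all 3 passed in every fit named above.

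Fusion genes were high at 0 min and much less so at 5 min. FUS1, a membrane protein of the fusion site, stood at 3.67 and 3.96 at 0 min and at 0.18 and 0.95 at 5 min, against -1.62 and -0.77 at 70 min and -1.12 and -0.78 at 75 min. All 4 arrest arrays lay above all 4 cycling arrays, but the mean of 0 min lay 3.25 above that of 5 min, as far as the groups lay apart. That difference was 3.26 ± 0.61 (adjusted p = 0.0011), with an adjusted p of 0.126 with only the 4 time points and 0.218 with the date block. KAR4, a transcription factor of the nuclear fusion genes, stood at 3.40 and 3.67, 0.35 and 0.66, -1.16 and -0.76, and -0.44 and -0.67, a difference of 2.78 ± 0.57 (adjusted p = 0.00211). Its adjusted p was 0.147 with only the 4 time points and 0.26 with the date block. PRM1, which promotes fusion of the plasma membranes, was higher by 4.48 ± 0.50 (adjusted p = 1.65e-05), though its adjusted p was 0.0501 and 0.0509 in those fits.

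The adhesin FIG2 was higher by 3.55 ± 0.36 and PRM3, a nuclear envelope protein needed for nuclear fusion, by 3.12 ± 0.37. PRM2, a pheromone-regulated membrane protein, was higher by 3.39 ± 0.44, with adjusted p of 0.0582 and 0.0774 in the fits with only the 4 time points and with the date block. FUS2 (2.34) and RVS161 (1.56), whose products act together in cell fusion, and KAR5 (2.17), a nuclear fusion protein, were also higher. PRM4 (1.38), the kinesin KAR3 (1.02) and its partner CIK1 (0.95) did not pass. They resembled FAR1 in their course: CIK1 had means of 2.37 at 0 min, -0.53 at 5 min and -0.03 in cycling cells. KAR1, a spindle pole body protein, and KAR9, which positions the spindle, were lower by 0.79 and 0.55 respectively; both also serve mitosis in cycling cells. The list held 7 higher and no lower genes with only the 4 time points in the fit and the same with the date block, and 14 higher with 25, 40 and 55 min.

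The step from 0 to 5 min was described by arrays alone, without a test. Of 5579 genes measured on both arrays of both times, 77 (1.38%) had both 0 min arrays above both 5 min arrays with a mean difference of 1 or more. The reverse was seen for 55 (0.986%). For comparison, 8 and 50 of 5583 genes met the same rules between 70 and 75 min. In the fusion list 16 of 29 genes were higher at 0 min by this rule and none was lower. The median of that list above the cycling level was 2.40 at 0 min and 0.79 at 5 min, and 20 of its 29 genes were at least 1 above it at 0 min against 13 at 5 min. In the feedback list 5 of 12 genes were higher at 0 min and in the a-cell list 3 of 8.

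Genes outside the pheromone lists differed between 0 and 5 min as well. In the list of daughter cell separation genes 6 of 14 were higher at 0 min. The glucanase SCW11 had means of 1.30 at 0 min and -2.15 at 5 min, against -0.39 in cycling cells, and AMN1, an antagonist of mitotic exit, 1.38, -1.91 and 0.05. PCL2, a cyclin of the kinase Pho85, stood at 2.39, -1.28 and 0.68. In the opposite direction, 5 of 32 MBF targets and 4 of 12 hexose transport genes were lower at 0 min than at 5 min. The high-affinity glucose transporter HXT2, whose difference did not pass (-1.05, adjusted p = 0.0567), stood at -1.97 and -0.99 at 0 min, -0.17 and 0.62 at 5 min, -0.55 and 1.03 at 70 min and 0.03 and 1.21 at 75 min. Both sets showed the lowest value at 0 min.

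**Figure D3:**
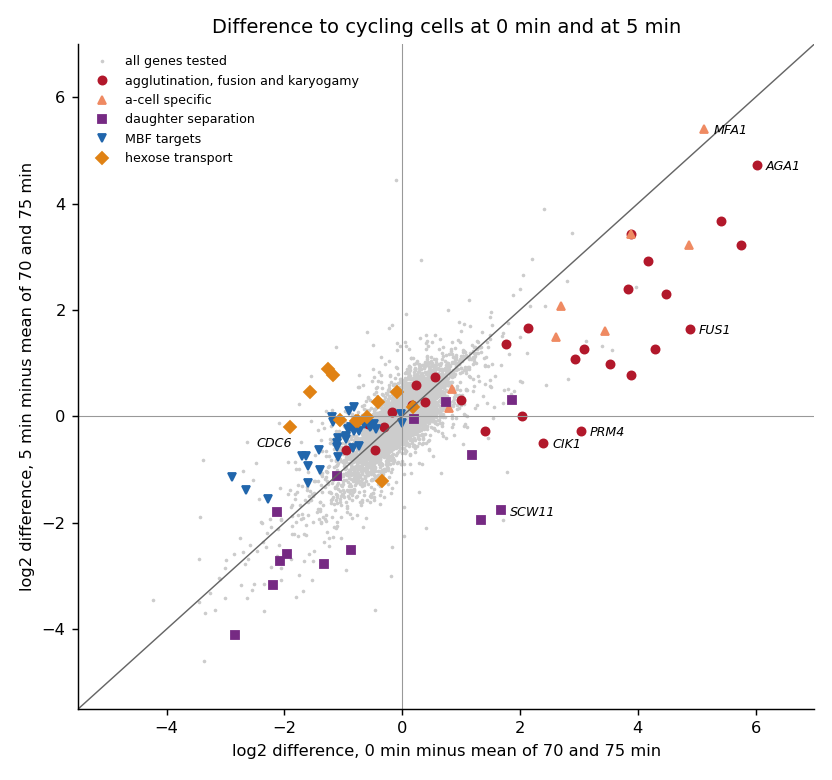
Log2 difference of 5 min from the cycling mean (vertical) against that of 0 min (horizontal), 1 point per gene tested, with the line of equal differences and 5 gene lists marked. Fusion genes such as FUS1, PRM4 and CIK1 lie right of the line, MFA1 lies close to it, and hexose transport genes lie to its left.

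Genes of the mitotic programme were lower at arrest than in cycling cells. The cell cycle lists together held 127 tested genes, of which 85 were lower and 2 higher, against 17.7% and 15.2% over all genes. In the CLB2 cluster, genes of G2 and M phase driven by Mcm1 with the forkhead factor Fkh2, 20 of 25 were lower and none higher, with a median of -1.35. At arrest these genes stood at a median of -0.64 against the reference, and in cycling cells at 0.45. CHS2, the chitin synthase of the primary septum, stood at -2.02 and -2.42 at 0 min, -2.22 and -2.29 at 5 min, 1.63 and 1.37 at 70 min, and 0.96 and 0.98 at 75 min. The arrest arrays were alike at both times and lay far below the cycling arrays, with a difference of -3.47 ± 0.26 (adjusted p = 4.42e-07).

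HST3, a histone deacetylase of the sirtuin family, stood at -2.29 and -2.93 at 0 min, -2.44 and -3.51 at 5 min, 0.80 and 0.78 at 70 min, and 0.69 and 0.66 at 75 min. Its difference of -3.53 ± 0.20, 11.5-fold lower, had an adjusted p of 3.9e-08. HOF1, a cytokinesis protein (-2.72 ± 0.24), and MMR1, which tethers mitochondria in the bud (-2.66 ± 0.21), were lower as well. So were the mitotic cyclins CLB2 (-2.63) and CLB1 (-2.50), the polo kinase CDC5 (-1.56) and the transcription factor SWI5 (-2.01). The genes of the list that did not pass included TEM1 (-0.04) and DBF2 (-0.35) of the mitotic exit network. Of the 25, 13 were lower with only the 4 time points in the fit, 16 with 25, 40 and 55 min, and 13 with the date block.

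The M/G1 programme, which depends on Swi5 and on mitotic exit, was also lower at arrest. Of 15 genes of that list 11 were lower and none higher, with a median of -1.37. PCL9, a cyclin of the kinase Pho85, stood at -1.58 and -1.76 at 0 min, -1.95 and -2.32 at 5 min, 1.38 and 1.08 at 70 min, and 2.07 and 1.49 at 75 min. Its groups lay on opposite sides of the reference, with a difference of -3.41 ± 0.36 (adjusted p = 1.23e-05). EGT2, which acts in the separation of daughter cells, stood at -1.67 and -2.52, -2.93 and -3.83, 0.62 and 0.16, and 1.35 and 0.82, a difference of -3.47 ± 0.44 (adjusted p = 5.19e-05). EGT2 was lower at 5 min than at 0 min and higher at 75 than at 70 min in both sets.

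AIM44, a bud neck protein (-3.08 ± 0.28), the cell wall protein PIR1 (-2.66 ± 0.44), the repressor ASH1 (-1.96) and the kinase inhibitor SIC1 (-1.81) were lower too. The list kept 7, 9 and 5 lower genes with only the 4 time points, with 25, 40 and 55 min and with the date block. Among the 14 daughter cell separation genes, 8 were lower and none higher, with a median of -1.40. The lower genes were 7 with 25, 40 and 55 min in the fit, and ASH1, BUD9, DSE3 and EGT2 in each of the other 2 fits. The direction was not the same for every member at 0 min: without 5 min, AMN1, DSE1, DSE2 and SCW11 were called higher and 7 genes lower, and without 75 min DSE2 was called higher. HO, the endonuclease that switches mating type, was lower by 2.68 on the log2 scale (SE 0.36), and the cell wall gene DSE3 had a difference of -2.27 ± 0.36. DSE2, a daughter cell wall glucanase (1.09, adjusted p = 0.146), SCW11 (-0.04) and the chitinase CTS1 (0.07) did not pass.

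The promoters known as early cell cycle boxes (ECB) bind Mcm1 with Yox1 or Yhp1, and drive genes for replication licensing and for late G1. Of 15 such genes 8 were lower and 2 higher, against 17.7% and 15.2% over all genes, with a median of -0.62. The higher ones were KAR4 and STE6 (above), which the pheromone lists share. CDC6, which loads the replicative helicase, stood at -1.52 and -1.27 at 0 min, 0.58 and 0.94 at 5 min, 1.17 and 1.07 at 70 min, and 1.05 and 1.65 at 75 min. Its 5 min arrays lay near the cycling arrays and its 0 min arrays far below. The difference of CDC6 was -1.55 ± 0.42 (adjusted p = 0.0109), but -0.48 without 0 min.

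SWI4, the DNA-binding subunit of SBF, was lower by 1.40 on the log2 scale (SE 0.23, adjusted p = 0.000483), and the helicase subunit MCM7 had a difference of -1.24 ± 0.18 (adjusted p = 0.000151). Of the other helicase genes MCM2, MCM3, MCM4 and MCM6 were lower, by 0.66 to 1.08 in size, while MCM5 (-0.33) and the cyclin CLN3 (-0.24) did not pass. YHP1, the relative of YOX1, stood at -0.55 and -0.64 at 0 min, -0.62 and -0.70 at 5 min, -0.22 and 0.18 at 70 min and -0.15 and 0.19 at 75 min, a difference of -0.62 ± 0.10 (adjusted p = 0.000401). The remaining YOX1 signal differed by -0.76 ± 0.21 (adjusted p = 0.0112). MCM3 and MCM6 were the 2 lower genes with only the 4 time points in the fit and MCM6 the 1 with the date block, while CDC6, SWI4, MCM2, MCM6 and MCM7 passed with 25, 40 and 55 min. Of the 2 higher genes KAR4 passed with 25, 40 and 55 min, and neither in the other 2 fits. YHP1, YOX1 and MCM1 did not pass in any of these 3 fits.

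Late G1 genes, driven by the factors SBF and MBF, were below the cycling level at arrest. SBF drives genes for budding and cell wall growth, and 16 of 22 tested were lower and none higher, with a median of -1.17. The mutated gene YOX1 is one of them. SVS1, a cell wall protein gene, stood at -3.18 and -3.36 at 0 min, -3.24 and -2.98 at 5 min, -0.76 and -0.46 at 70 min, and -0.15 and 0.32 at 75 min. It was as low at 5 min as at 0 min, and its difference was -2.93 ± 0.39 (adjusted p = 7.04e-05). TOS6 (-3.06 ± 0.41) and CIS3 (-2.85 ± 0.17), both of the cell wall, and the G1 cyclins CLN1 (-1.23 ± 0.23) and CLN2 (-1.39) were lower as well. PCL1, a cyclin of Pho85, stood at -3.59 and -3.31 at 0 min, -1.17 and -0.61 at 5 min, -0.55 and -0.37 at 70 min, and 0.35 and 0.30 at 75 min. Its 0 min arrays lay more than 2 below its 5 min arrays, which in turn lay close under the cycling arrays.

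MBF drives genes for DNA replication, and 17 of 32 tested were lower and none higher, with a median of -0.66. RNR1, the large subunit of ribonucleotide reductase, stood at -2.62 and -2.96 at 0 min, -0.82 and -1.27 at 5 min, -0.36 and -0.61 at 70 min, and 0.81 and 0.53 at 75 min. Its level was higher at the later time of both pairs, and the difference was -2.01 ± 0.44 (adjusted p = 0.00323). The cohesin subunit MCD1 (-2.03 ± 0.38), the regulator TOS4 (-1.92 ± 0.31) and the kinase SWE1 (-1.42 ± 0.23) were lower, while the primase subunit PRI1 (-0.06) and ELG1 (0.01) did not pass. Relative to cycling cells the median of the MBF list was -0.96 at 0 min and -0.39 at 5 min, and that of the SBF list -1.26 and -1.16. With only the 4 time points in the fit 8 SBF targets were lower, with 25, 40 and 55 min 10, and with the date block 6. The MBF targets called were 7 with 25, 40 and 55 min, and only SWE1, TOS4 and the ribonuclease gene RNH201 in each of the other 2 fits.

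The histone genes, which are transcribed in S phase, lay below the reference in both groups and lower still at arrest. Of 10 tested, 9 were lower at arrest and none higher, with a median of -1.10. HHO1, the linker histone H1, stood at -3.02 and -2.82 at 0 min, -2.81 and -2.82 at 5 min, -1.0 and -0.56 at 70 min, and -0.82 and -0.09 at 75 min. The difference was -2.25 ± 0.20 (adjusted p = 2.07e-06). The H4 genes HHF2 (-1.65 ± 0.30) and HHF1 (-1.61 ± 0.28) and the H2A gene HTA2 (-1.51 ± 0.30) followed. Signal of 1 copy of a core histone may include that of its near-identical twin. The variant HTZ1 did not pass (-0.34). HHO1, HHF1, HHF2, HTA1 and HTA2 passed with only the 4 time points and with the date block. HHO1 alone of the histones passed with 25, 40 and 55 min in the fit, and HHO1 and HHF2 with arrays scaled to equal spread.

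**Figure D4:**
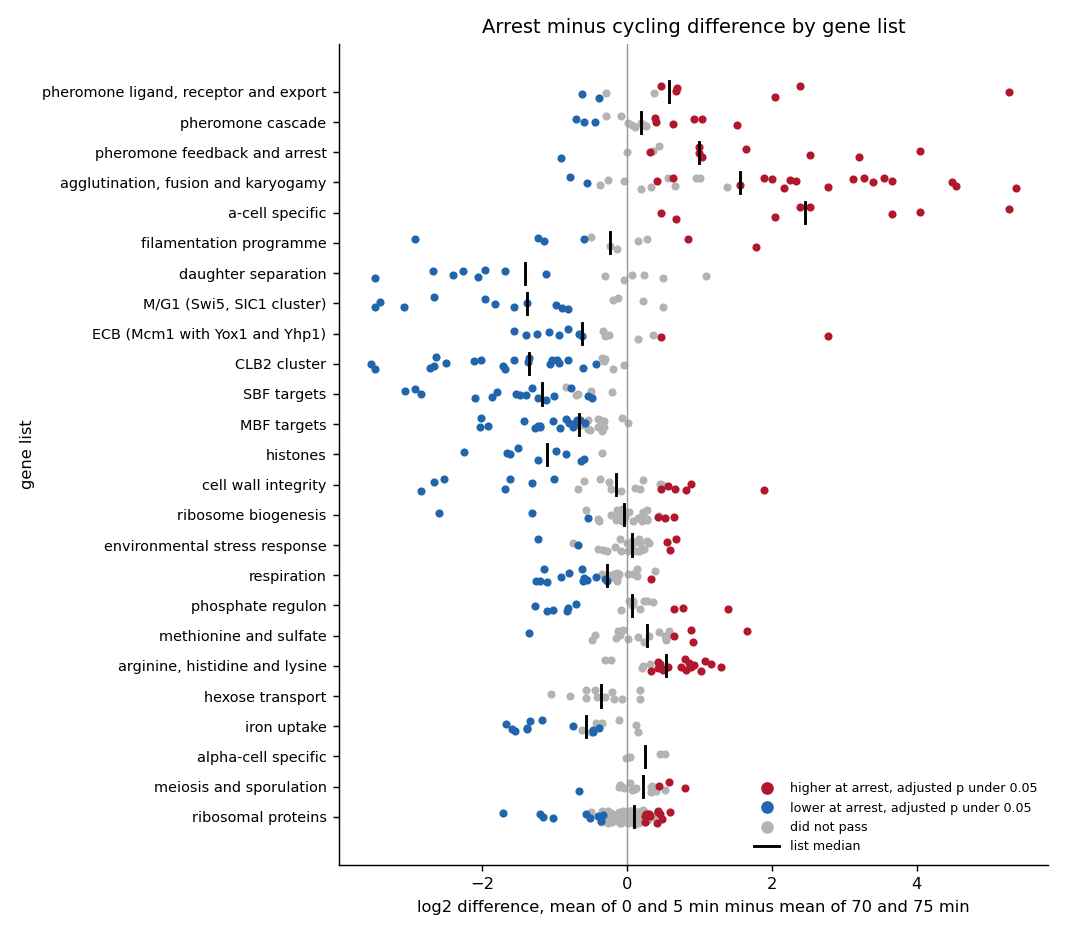
Log2 difference of arrest minus cycling (horizontal) for each tested member of 25 gene lists (vertical), coloured by the call, with a bar at each list's median. The medians of the a-cell and fusion lists lie furthest to the right, and those of the daughter separation, M/G1, CLB2, SBF and histone lists furthest to the left.

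Among metabolic lists, genes of arginine, histidine and lysine synthesis were higher at arrest. Of 22 tested 17 were higher and none lower, with a median of 0.54 against 0.00 over all genes. These genes stood above the reference in both groups, at a median of 1.5 at arrest and 0.80 in cycling cells. ARG3, ornithine carbamoyltransferase, stood at 1.30 and 1.65 at 0 min, 1.71 and 2.47 at 5 min, 0.63 and 0.43 at 70 min, and 0.38 and 0.49 at 75 min, with no overlap and a difference of 1.30 ± 0.18 (adjusted p = 0.000101). ARG4, argininosuccinate lyase (1.16 ± 0.15), HIS4 of histidine synthesis (1.08 ± 0.12) and LYS21, homocitrate synthase (1.02 ± 0.10), followed. The count was 8 with only the 4 time points, 9 with 25, 40 and 55 min, 6 with scaled arrays and 2, ARG1 and ARG4, with the date block.

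Iron uptake genes were lower at arrest, 11 of 18 tested and none higher, with a median of -0.56. Over all genes 17.7% were lower and 15.2% higher. FTR1, the iron permease, stood at 0.05 and -0.84 at 0 min, -1.02 and -1.64 at 5 min, 0.91 and 0.45 at 70 min, and 1.13 and 0.41 at 75 min. It was lower at 5 min than at 0 min in both sets, and the difference was -1.59 ± 0.21 (adjusted p = 6.63e-05). Its partner, the multicopper oxidase FET3 (-1.66 ± 0.30), the reductase FRE1 (-1.54 ± 0.19) and the cell wall protein FIT3 (-1.37 ± 0.14) were lower too. FIT3 passed also with the date block, the 1 gene of the list to do so. With only the 4 time points FIT3, FRE1 and CCC2 passed, and with 25, 40 and 55 min FIT3, FRE1, FTR1, SIT1 and ARN1.

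Of 28 respiratory genes 13 were lower and 1 higher, against 17.7% and 15.2% over all genes, with a median of -0.28. Malate dehydrogenase MDH1 (-1.25 ± 0.11), QCR2 (-1.2 ± 0.21), CYT1 (-1.14 ± 0.14) and RIP1 (-1.11 ± 0.18), of which the last 3 belong to respiratory complex III, were lower. QCR10, of the same complex, was the higher one (0.34). None of the list passed in limma with 25, 40 and 55 min in the fit, where 4 had an unadjusted p under 0.05, and MDH1 alone with the date block. MDH1, CYT1 and RIP1 were the 3 lower genes with only the 4 time points.

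Methionine and sulfate genes had 4 higher and 1 lower of 22 (median 0.28), namely the sulfate permease SUL1 (1.66 ± 0.29), MUP3 (0.91), STR3 (0.88) and MET16 (0.65), with the cystathionine lyase CYS3 lower (-1.35 ± 0.29). That is a smaller share than the 32.9% called over all genes. SUL1 alone passed with 25, 40 and 55 min, and no gene of the list in limma with only the 4 time points or with the date block, where 4 and 2 had an unadjusted p under 0.05. Without 0 min 10 of the list were higher. Of 18 phosphate regulon genes 3 were higher (GIT1, PHO89 and PHM8) and 6 lower, among the latter the acid phosphatase PHO11 (-1.10 ± 0.27) and the polyphosphate polymerase subunit VTC4 (-1.03 ± 0.20). Over all genes 15.2% were higher and 17.7% lower. GIT1 alone passed with 25, 40 and 55 min, VTC4 and CTF19, both lower, with only the 4 time points, and no gene in limma with the date block, where 3 had an unadjusted p under 0.05. No hexose transport gene of 12 passed in limma, where 3 had an unadjusted p under 0.05. Without 5 min 8 of them were lower, and without 0 min HXT6, HXT7 and RGT2 were higher and HXT1 lower.

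The calls of several other lists were largely lost in the 3 other fits. Ribosomal protein genes had 11 higher and 9 lower of 137, a median of 0.10, a smaller share than over all genes. Over all genes 15.2% were higher and 17.7% lower. Ribosome assembly genes had 3 higher (FAL1, NSR1 and SOF1) and 3 lower (NOP1, NOP56 and NOP58) of 30. NOP58, a core protein of the small nucleolar RNPs, was the lowest of the latter (-2.60 ± 0.49), but the sets disagreed in level, at -1.30 and -3.57 at 0 min and -2.75 and -5.30 at 5 min, against -1.29 and -0.47 at 70 min and -0.51 and -0.26 at 75 min. Stress response genes had 3 higher and 2 lower of 26, with the glycerol phosphatase GPP2 (0.68 ± 0.12), the catalase CTT1 and GPD1 higher and the glucokinase GLK1 (-1.23 ± 0.29) and TSL1 lower. No stress gene passed in limma with only the 4 time points, with 25, 40 and 55 min or with the date block, where 4, 3 and 3 had an unadjusted p under 0.05. The same held for the ribosome assembly genes, where 5, 4 and 3 did. Of the ribosomal protein genes RPP2A, lower with 25, 40 and 55 min, was the 1 called in limma in these fits, where 13, 2 and 7 had an unadjusted p under 0.05.

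Cell wall integrity genes were split, 6 higher and 7 lower of 24, against 15.2% and 17.7% over all genes. The higher ones included PRM5 (1.89 ± 0.21), the MAP kinase SLT2 (0.88) and the chitin synthase CHS3 (0.81), and the lower ones the wall proteins PIR1, CIS3 and HSP150 (-2.52 ± 0.47). PRM5 was higher, and CIS3, GAS1 and HSP150 lower, with only the 4 time points. PRM5, SLT2 and CHS3 were higher, and CIS3, CRH1, PIR1 and PST1 lower, with 25, 40 and 55 min. PRM5 and CIS3 passed with the date block.

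Filamentation genes had 2 higher and 4 lower of 11, against 15.2% and 17.7% over all genes. DDR48, a stress gene whose reading frame overlaps another (1.78 ± 0.24), and the pectinase PGU1 (0.85) were higher, and the signalling mucin MSB2 (-1.14 ± 0.18), KSS1, CLN1 and SVS1 were lower. Of these DDR48, CLN1 and SVS1 passed with only the 4 time points, CLN1 and SVS1 with 25, 40 and 55 min, and DDR48 and SVS1 with the date block. Meiosis genes had 3 higher and 1 lower of 16, against the same shares over all genes. SPO11 (0.81 ± 0.23), DMC1 (0.58 ± 0.15) and SPO13 (0.44 ± 0.11) were higher and SPO16 lower (-0.66 ± 0.14). The higher calls were lost in the other 3 fits, where SPO16 with 25, 40 and 55 min was the 1 call in limma and 5, 4 and 2 genes had an unadjusted p under 0.05. They were also lost without 75 min. None of 4 tested alpha-cell genes passed in limma, where 1 had an unadjusted p under 0.05.

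Several of the largest differences fell outside the lists. MRH1, a plasma membrane protein, stood at -2.76 and -3.62 at 0 min, -1.96 and -2.86 at 5 min, 1.2 and 1.03 at 70 min, and 0.96 and 0.96 at 75 min. It had the lowest difference of the named genes, -3.84 ± 0.40 or 14.3-fold lower (adjusted p = 9.8e-06), and passed in every fit named above. SUR7, a protein of the membrane domains called eisosomes, was lower by 3.08 on the log2 scale (SE 0.18, adjusted p = 6.16e-08). SSU1, the sulfite exporter, stood at 2.46 and 2.91 at 0 min, 3.5 and 3.40 at 5 min, 0.65 and 0.58 at 70 min, and 0.61 and 0.11 at 75 min. It was higher at 5 min than at 0 min in both sets, with a difference of 2.58 ± 0.21 (adjusted p = 1.26e-06).

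PMA2, a second plasma membrane proton pump, had a difference of -3.03 ± 0.43, the reading frame YOR248W one of -3.21 ± 0.36, YBL100C one of -2.84 ± 0.68 and YIL080W one of 2.67 ± 0.23. The array of 70 min in set 1 gave YBL100C a value of -2.54, just above its arrest arrays (-3.97 to -2.58), while the other 3 cycling arrays stood at -0.44 to 0.50. YBL100C and PMA2 did not pass with 25, 40 and 55 min in the fit (adjusted p = 0.0834 and 0.274).

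The arrest levels were then set against the rest of the course. Of the 129 genes higher by 1 or more, 83 stood at least 1 above the reference at arrest and 19 at least 1 below it in cycling cells. For 69 of them both arrest means lay above those of all 18 other times in the fit. FUS1, one of the higher genes, ranged from -1.26 to -0.51 outside the pairs compared, and AGA1 from -0.97 to 3.18, the latter at 10 min. Of the 268 genes lower by 1 or more, 198 stood at least 1 below the reference at arrest and 30 at least 1 above it in cycling cells. For 163 both arrest means lay below all 18 other times.

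The gap between times 1 period apart was smaller for later pairs. Its SD over genes was 0.59 for 0 and 5 min against 70 and 75 min, 0.43 for 10 and 15 min against 80 and 85 min, 0.40 for 20 min against 90 and 95 min, 0.31 for 30 and 35 min against 100 and 105 min, and 0.25 for 45 and 50 min against 115 and 120 min. Genes with a gap of 1 or more made up 6.88% at the first of these and 0.677% at the last. List medians, given as a description, took several courses. That of the a-cell genes went from 2.46 through 0.63 to 0.16 over the first 3 pairs, and that of the fusion genes from 1.56 through 0.25 to 0.06. MFA1 kept a gap of 3.96 and AGA1 one of 2.91 at 10 and 15 min, where FUS1 (-0.09), KAR4 (0.13) and FUS3 (-0.09) had almost none.

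The medians of the MBF and SBF targets changed sign over those 3 pairs, from -0.66 through 0.40 to 0.77 and from -1.17 through -0.15 to 0.37. The CLB2 cluster went from -1.35 through -0.88 to -0.75, and the histones from -1.10 through -1.58 to -0.89. The daughter separation genes went from -1.40 through -2.62 to -2.69, and stood at -1.69 at the last pair. The arginine, histidine and lysine genes stood at 0.54, 0.92 and 0.89, and at 0.19 at the last pair. None of these medians was tested.

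**Figure D5:**
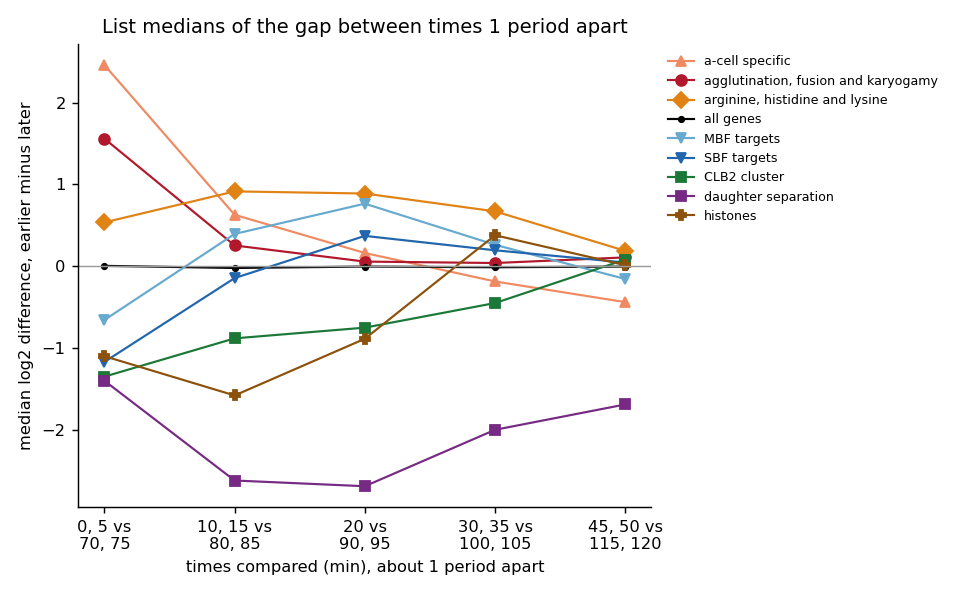
Median log2 difference of each list (vertical) between times about 1 period apart, earlier minus later, for 5 successive pairs along the course (horizontal), with all genes in black. The a-cell and fusion lists start highest and come near 0 by the third pair, the daughter separation list stays lowest from the second pair on, and all genes stay at 0.

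Whether the gap had changed 10 min later was tested in the same fit, and 388 of 5988 genes (6.48%) passed. The 5 with the largest change were DSE2 (3.70), FUS1 (3.36), PRM1 (3.33), BAR1 (3.27) and PRM6, a pheromone-regulated potassium transporter (2.95). DSE2 moved from 1.09 to -2.61 and BAR1 from 2.53 to -0.74. This count rests on the spread estimate: no gene passed in limma with 25, 40 and 55 min in the fit, where 476 had an unadjusted p under 0.05, and 2 passed with scaled arrays. Of the 129 higher genes 31 had a changed gap and 52 still had one of 1 or more 10 min later, and of the 268 lower genes 77 and 61.

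In array set 2, 10 min shares its title date with 70 and 75 min, which gave a comparison within 1 date, with no test. Its 70 and 75 min arrays are among those behind the calls, so agreement in sign is partly built in. The same share over all genes was not counted. Of 41 named genes called higher at arrest, 38 were also higher at 10 min there, 23 of them by 1 or more. Of 60 called lower, 49 were lower there, 24 by 1 or more. MFA1 was higher by 4.41, AGA1 by 3.81 and AGA2 by 3.02 in that comparison, and CHS2 stood at -2.61, HST3 at -2.21 and PCL9 at -3.19 relative to 70 and 75 min. RNR1 (1.25), PCL1 (1.06) and MCD1 (0.64), lower at 0 and 5 min, were higher at 10 min.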

How the data were processed

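Two-colour arrays measured each time point against asynchronous wild-type RNA, per the labels. The deposited values are log10 ratios; their base is inferred from limits at exactly -2 and 2, and their direction, Cy5 over Cy3, from the dyes per the labels and the high FUS1 at 0 min, and neither is stated. The sources used here do not give how the authors processed the images and normalised the ratios. The number of arrays limits the precision; no intensities were used.

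Of 6217 array features, 12 controls were left out. Names came from a RefSeq table of assembly R64 by locus tag (5704 matched; 501 kept the file's name). Values on the limits were set missing, ratios converted to log2, arrays median-centred and both arrays of a time point averaged. In R 4.3.3 with limma 3.58.1, 22 time points in 11 bins were fitted and 0-5 contrasted with 70-75 min. 25, 40 and 55 min stayed out (SD of ratios 0.74 to 1.23, against 0.33 to 0.83 elsewhere). Genes measured at 18 or more time points in the fit were tested. The fit was tested on simulated data. Plots were drawn in Python 3.11.15 with matplotlib 3.10.9.

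The times compared, the gene lists and the tests were chosen with earlier results of these data known. Named were the 15 highest and 15 lowest called genes with non-overlapping arrays, YOX1, YHP1 and MCM1, the 4 largest called members of each list (every one where 5 or fewer were called, the largest member where none was) and the 5 largest changes of the gap. Genes outside this rule were picked after their values were seen. Alternatives covered the spread estimate, array sets, centring, scaling, limits, blocks, thresholds and each array or time point left out. No promoter or protein sequences were used here. The treatment label gives sampling every 10 min, the design text every 5 min.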

Additional observations from a re-analysis of the deposited data

Results flagged for a closer look

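Within each group of 4 arrays, 8 of 203 groups of the named genes held 1 array far from the other 3, where chance gives about 1 in 20. In cycling cells, the 75 min array of set 2 was apart for SSU1 (0.11, against 0.58 to 0.65 on the others), SPO11 (-0.91, against -0.28 to -0.15) and DMC1 (-0.98, against -0.27 to -0.17). This is the array whose source name reads 0 min. Across genes it correlated at 0.154 to 0.247 with the 4 arrest arrays and at 0.419 to 0.716 with the other 3 cycling arrays. The 75 min array of set 1 was apart for MFA2 (-0.18, against -0.86 to -0.79) and RPS0B (0.45, against -0.19 to -0.12). The 70 min array of set 1 was apart for CTF19 (-1.32, against -0.55 to -0.41) and CYS3 (-0.25, against 0.51 to 0.66). At arrest, the 0 min array of set 1 was apart for HHO1 (-3.02, against -2.82 to -2.81), a gap that is small in size. Why these arrays differ was not tested.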

How the results depend on the processing

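The main fit called 913 higher and 1060 lower genes. Totals were 125 and 171 with only 0, 5, 70 and 75 min, and 226 and 182 with 25, 40 and 55 min included. Array set 1 alone gave 379 and 331, of which 340 and 299 were shared with the main fit. The totals are thus not all calls of the main fit. Title date as a random block gave 75 and 90, and array set as a replicate block 385 and 443. Time point as a random block gave 464 and 688, with a consensus correlation of -0.208 within blocks. A negative value narrows the standard errors, so that block is not a stricter test. Leaving out 75 min gave 503 and 567, and an adjusted p under 0.01 gave 485 and 623. Leaving out each array in turn gave 765 to 1050 higher and 834 to 1252 lower genes. The other alternatives stayed within 1.5 times, from 661 to 1162 higher and 777 to 1345 lower. The replicate numbers name arrays of 2 sets and pair no cultures. The array set block lost the calls of 19 of 104 named genes, not all of which were called in the main fit. The title date block lost the calls of 63 of them. With only 0, 5, 70 and 75 min 53 were lost, and with 25, 40 and 55 min included 41. These fits reversed no call. Counts of non-overlapping arrays ranged from 82 to 111 higher and 124 to 163 lower. The 388 changed gaps became 0 with 25, 40 and 55 min included, 28 in set 1 (831 at an unadjusted p under 0.05), 599 in set 2 and 2 with scaled arrays. No named gene that was called reversed in a tested alternative. Genes that were not called could not count as reversed by this rule. FAR1, not called with all times, was lower without 0 min and higher without 5 min. At 10 min against 70 and 75 min in set 2, a value with no test, 14 reversed: PRM6 (-0.25), AFR1 (-0.11), FAL1 (-0.43), TSL1 (0.40), PHO11 (0.32), GLK1 (0.76), CLN1 (0.12), MCM7 (0.13), CYS3 (0.0218), CDC6 (0.0129), TOS4 (0.0322), RNR1 (1.25), MCD1 (0.64) and PCL1 (1.06). The causes were not tested. Signal over background is unknown, so values of dim spots cannot be told from bright ones.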

Other observations

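Retrotransposon reading frames, a list written after the data were seen, fell into 2 sets. Of 29 frames of Ty1, Ty2 and Ty4 elements, 17 were higher at arrest, by 0.95 to 1.47, with levels of 0.71 to 1.27 at arrest and -0.30 to 0.02 in cycling cells. The other 12 had differences of -1.04 to -0.48, of which 1 (YJL114W, -0.72) passed. They stood below the reference in both groups, at -3.31 to -1.07 at arrest and -2.43 to -0.35 in cycling cells, and their 70 min levels (-3.57 to -0.48) reached as low as those at arrest. Frames of one kind are copies of each other, so their probes may share signal and are not separate observations. Of 3 frames of Ty3, the element whose transcription responds to pheromone, YIL080W was higher (2.67). YIL082W (0.44) and YIL082W-A (0.26) did not pass, and their groups overlapped.

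Genes of cell surface transport and mating outside the lists include the ammonium permease MEP2 (2.20) and the pheromone-regulated PRM7 (2.25), both higher in all the fits that define the core.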
